A study of Mus musculus with 6 samples.

Results

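The liver sinusoidal endothelial genes are 10 genes of the cells that line the liver's blood channels. They were chosen by symbol: Stab1, Stab2, Lyve1, Clec4g, Mrc1 and Oit3 as scavenger receptors and related surface proteins of sinusoidal endothelium, Kdr and Pecam1 as markers of endothelium in general, and Wnt2 and Rspo3 as signals that central vein endothelium sends to hepatocytes. All 10 were among the 32212 rows of the count table, each on 1 row, and all 10 were among the 13867 genes tested. The groups were the livers of 3 WT and 3 CgA-KO male mice on the C57BL/6 background, all 2 yr old, fed normal chow and kept in a 12 h dark/light cycle. CgA-KO mice lack chromogranin A (CgA), the prohormone encoded by Chga. Nothing in the labels says how the knockout allele was made, and the mice of both groups shared diet, sex and age. Poly(A)-selected RNA of a piece of whole liver was sequenced, 1 library per mouse, so each value mixes every cell type of the organ.

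Sinusoidal endothelial cells form a fenestrated lining without a continuous basement membrane and clear waste molecules from blood with a set of endocytic receptors. Several of these receptors are shared with other cells: Stab1, Mrc1 and Lyve1 are also made by tissue macrophages, and Lyve1 also by lymphatic vessels. Endothelium near the central vein secretes Wnt ligands and R-spondins, which keep nearby hepatocytes in their pericentral gene program.

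Library totals ranged from 10558616 to 31087453 counts. A level of 3 counts, taken here as the floor of detection, was between 0.0951 and 0.269 CPM, for counting error only. CPM are counts per 1e6 counts of the library, here after TMM scaling, which uses a trimmed mean of log ratios between libraries. The hepatocyte gene Alb was at 30650 to 66130 CPM, which fits the tissue label. Chga had 0 counts in all 6 libraries, so it could not check the genotype labels. Errors of levels are standard deviations over 3 livers, and tests are two-sided.

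In CgA-KO livers Lyve1 and Mrc1 rose and Clec4g fell, while the other 7 genes did not pass the test. The calls are those of edgeR's quasi-likelihood test at a Benjamini-Hochberg adjusted p-value under 0.05 over all genes. By that rule 8.60% of all genes tested were called higher in CgA-KO livers and 3.84% lower, 12.4% in either direction, against 2 of 10 members higher and 1 of 10 lower. Unadjusted p-values were under 0.05 for 5 members and for 29.1% of all genes tested (4032 genes). The libraries of the genotypes did not overlap for Stab2, Lyve1 and Mrc1, which were higher in CgA-KO, and for Clec4g, which was lower. Over all genes tested, 19.0% did not overlap with CgA-KO higher and 14.6% with CgA-KO lower, 33.6% in either direction. The median log2 fold change, CgA-KO minus WT, was 0.09 over the 10 members and -0.01 over all genes tested. The members' fold changes ran from -1.11 to 2.81 on the log2 scale.

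**Figure D1:**
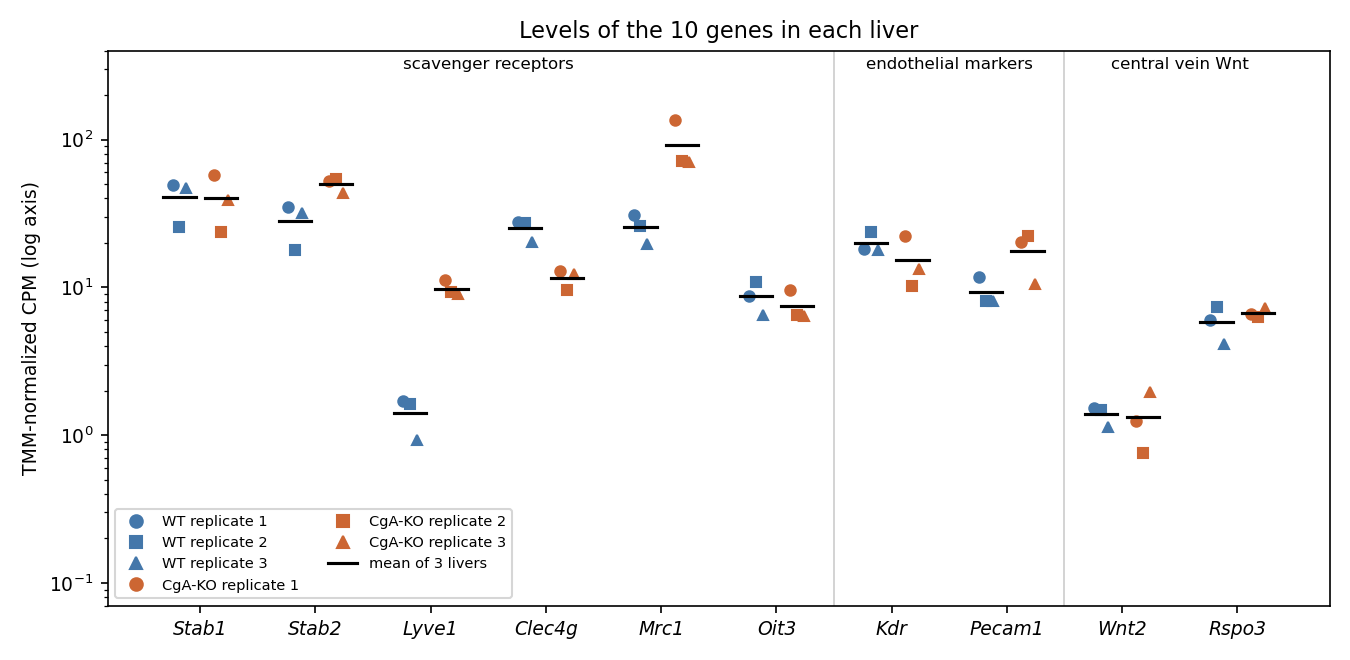
TMM-scaled CPM on a log axis for the 10 genes in each of the 6 livers, with WT in blue, CgA-KO in orange, 1 marker shape per replicate number and a black bar at the mean of 3 livers. Lyve1, Mrc1 and Stab2 lie above WT in every CgA-KO liver and Clec4g lies below, while Stab1, Oit3, Kdr, Pecam1, Wnt2 and Rspo3 overlap. Stab2 did not pass the test.

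The upstream sequences of Clec4g, Mrc1 and Stab1 are shown because these receptors went in different directions: Clec4g fell, Mrc1 rose and Stab1 did not pass the test. The 250 bases before the start of transcription were taken from RefSeq on GRCm38.p6 and are given 5′ to 3′ on the strand of the gene. Capitals mark AGGAAG or its reverse complement CTTCCT, a form of the ETS site made of the core and flanking letters. ETS factors are a family that includes endothelial and myeloid regulators. Other forms of the ETS site were not searched. The regions are chr8:3720652-3720901 on the minus strand for Clec4g, chr2:14229164-14229413 on the plus strand for Mrc1 and chr14:31168642-31168891 on the minus strand for Stab1.
Clec4g: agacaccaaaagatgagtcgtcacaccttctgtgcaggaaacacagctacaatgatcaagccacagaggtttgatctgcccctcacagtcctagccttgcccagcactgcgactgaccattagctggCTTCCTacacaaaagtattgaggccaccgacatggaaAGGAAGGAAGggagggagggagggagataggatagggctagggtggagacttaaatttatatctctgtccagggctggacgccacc
Mrc1: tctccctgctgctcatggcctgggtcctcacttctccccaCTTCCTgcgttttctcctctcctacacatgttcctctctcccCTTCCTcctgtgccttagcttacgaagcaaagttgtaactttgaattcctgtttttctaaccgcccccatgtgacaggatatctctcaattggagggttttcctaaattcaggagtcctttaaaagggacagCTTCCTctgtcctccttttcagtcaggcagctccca
Stab1: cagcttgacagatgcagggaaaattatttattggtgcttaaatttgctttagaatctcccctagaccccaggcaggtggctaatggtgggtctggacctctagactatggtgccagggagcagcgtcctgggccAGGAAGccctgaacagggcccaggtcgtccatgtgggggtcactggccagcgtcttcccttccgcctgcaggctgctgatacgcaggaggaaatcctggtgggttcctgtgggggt
Clec4g held 3 matches, at 123, 86 and 82 bases before the start, of which the last pair overlap. Mrc1 also held 3, at 210, 168 and 36 bases, and Stab1 held 1, at 116 bases. The last 22 bases shown for Mrc1 lie in its first exon in GENCODE. Of the 10 genes, 6 had a RefSeq window, and 4 of these 6 (Stab1, Stab2, Clec4g and Mrc1) held the letters on either strand, against 29.5% of all 32851 windows of this length. Kdr and Wnt2 held none of these exact letters. AGATAA or its reverse complement TTATCT, a form of the site bound by GATA factors, were in 0 of the 6 windows and in 9.99% of all windows. Other forms of the GATA site were not searched. Lyve1, Oit3, Pecam1 and Rspo3 had no window in the table. These matches are descriptions of letters and were not set against binding.

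Among the scavenger receptors, Stab1 and Stab2 encode the stabilins, large receptors that take up hyaluronan, modified lipoproteins and other waste. Stab1 lies on chromosome 14 of GRCm38 from 31139013 to 31168641 with 69 exons, and 112 bases of its exons overlap Nt5dc2 on the opposite strand. WT replicates 1, 2 and 3 had 49.5, 25.8 and 47.3 CPM of Stab1, and CgA-KO replicates 1, 2 and 3 had 57.6, 23.7 and 39.2 CPM. The genotypes overlapped, with the lowest level of each in replicate 2. The means were 40.9 ± 13.1 and 40.1 ± 17.0 CPM (n = 3 each), a log2 fold change of -0.02 (SE 0.35, edgeR adjusted p = 0.972), whose sign was positive with scaling by library size alone (0.20) and with upper-quartile factors (0.02).

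Stab2, on chromosome 10 from 86841198 to 87008025 with 69 exons, shares 141 exonic bases with the antisense gene Gm16268. Stab2 stood at 34.8, 18.03 and 31.9 CPM in the WT livers and at 52.9, 54.1 and 43.5 CPM in the CgA-KO livers. Every CgA-KO liver was above every WT liver, but the gene did not pass the test. The means were 28.2 ± 9.0 and 50.1 ± 5.8 CPM, a ratio of 1.78 and a log2 fold change of 0.83 (SE 0.25, edgeR adjusted p = 0.0632). It was called by DESeq2 (0.81, adjusted p = 0.0283), by edgeR with a filter on a total of at least 1 count (0.84, adjusted p = 0.0408) and by edgeR without WT replicate 1 (1.03, adjusted p = 0.0419).

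The stabilins kept a nearly fixed ratio in WT livers. Stab1 had 1.42, 1.43 and 1.48 counts per count of Stab2 in WT replicates 1, 2 and 3, and 1.09, 0.439 and 0.901 in the CgA-KO livers. All CgA-KO ratios were lower, and the spread among them was wider, 0.809 ± 0.335 against 1.45 ± 0.034 in WT. An exact permutation test of the log2 ratio gave p = 0.1, the smallest that 3 livers against 3 can give, and 0.2 after adjustment over the 8 count ratios computed, which were chosen after the counts had been seen.

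Lyve1 encodes a hyaluronan receptor that marks sinusoidal and lymphatic endothelium and a class of tissue macrophages. It lies on chromosome 7 from 110850607 to 110863239 with 6 exons. Lyve1 had 19, 38 and 22 counts in the WT livers and 241, 294 and 200 in the CgA-KO livers. On the CPM scale this was 1.70, 1.62 and 0.931 in WT and 11.2, 9.32 and 8.96 in CgA-KO. The lowest CgA-KO liver was far above the highest WT liver, and WT replicate 3 was the lowest of all. Lyve1 rose from 1.42 ± 0.42 to 9.82 ± 1.19 CPM, 7.01-fold, with a log2 fold change of 2.81 (SE 0.31, edgeR adjusted p = 0.00304). It was called under all 13 alternatives, with log2 fold changes from 2.56 to 3.10.

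Mrc1 encodes the mannose receptor, which sinusoidal endothelial cells and macrophages use to clear mannose-bearing glycoproteins and collagen fragments. It lies on chromosome 2 from 14229392 to 14332057 with 30 exons. Its level was 30.8, 26.1 and 19.6 CPM in the WT livers and 135.7, 71.2 and 70.9 CPM in the CgA-KO livers. CgA-KO replicate 1 was higher than the other two, which were close to each other and still above every WT liver. Mrc1 rose from 25.5 ± 5.6 to 92.6 ± 37.4 CPM, 3.64-fold, with a log2 fold change of 1.86 (SE 0.30, edgeR adjusted p = 0.00814). Without CgA-KO replicate 1 it was 1.51 (adjusted p = 0.0192), and the gene was called under all 13 alternatives. Macrophage markers were also higher in CgA-KO livers, with 11 of 13 called, against 8.60% of all genes tested. Their summed level was 147.3 to 365.4 CPM in WT and 1506 to 2129 CPM in CgA-KO, and none was at 0 in any library.

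Clec4g encodes LSECtin, a C-type lectin of sinusoidal endothelium of liver and lymph node. It lies on chromosome 8 from 3707064 to 3720651 with 9 exons and shares 146 exonic bases with the antisense gene Gm16553. Clec4g stood at 27.7, 27.4 and 20.2 CPM in the WT livers and at 12.99, 9.54 and 12.3 CPM in the CgA-KO livers. No CgA-KO liver reached the lowest WT liver. The means were 25.1 ± 4.3 and 11.6 ± 1.8 CPM, so the level was 2.16-fold higher in WT, with a log2 fold change of -1.11 (SE 0.21, edgeR adjusted p = 0.0135). Leaving out any 1 library kept the call, with adjusted p-values up to 0.0447. Scaling by library size alone ended it (-0.84, adjusted p = 0.0641). That scaling moved the median of all genes from -0.01 to 0.26, and relative to the median Clec4g was at -1.10 under both scalings.

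Oit3 encodes a secreted or surface protein with zona pellucida and EGF-like domains that is enriched in liver endothelium. It lies on chromosome 10 from 59422958 to 59441778 with 9 exons. Its level was 8.77, 10.9 and 6.52 CPM in the WT livers and 9.56, 6.47 and 6.45 CPM in the CgA-KO livers. The genotypes overlapped, and the log2 fold change was -0.22 (SE 0.28, edgeR adjusted p = 0.641), or 0.07 with scaling by library size alone. Without 1 library it ran from -0.41 (without WT replicate 3) to -0.03 (without WT replicate 2).

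The general endothelial markers did not pass the test. Kdr, the main receptor for VEGF-A on endothelium, lies on chromosome 5 from 75932827 to 75978458 with 30 exons. Kdr was at 18.1, 23.6 and 17.99 CPM in the WT livers and at 22.2, 10.1 and 13.4 CPM in the CgA-KO livers. CgA-KO replicate 1 lay within the WT range and the other two lay below it. The log2 fold change was -0.39 (SE 0.29, edgeR adjusted p = 0.415), and it ran from -0.72 without CgA-KO replicate 1 to -0.12 without CgA-KO replicate 2.

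Pecam1 encodes the junctional adhesion molecule CD31 of endothelium, platelets and leukocytes. It lies on chromosome 11 from 106654217 to 106750628 with 15 exons. Its level was 11.7, 8.12 and 8.04 CPM in the WT livers and 20.2, 22.3 and 10.6 CPM in the CgA-KO livers. CgA-KO replicate 3 was below WT replicate 1, so the genotypes overlapped. The means were 9.30 ± 2.10 and 17.7 ± 6.2 CPM, a ratio of 1.92 and a log2 fold change of 0.94 (SE 0.31, edgeR adjusted p = 0.0777). DESeq2 called Pecam1 (0.915, adjusted p = 0.0431), as did edgeR without WT replicate 1 (1.17, adjusted p = 0.0482) and without CgA-KO replicate 3 (1.23, adjusted p = 0.0263). Kdr had 1.54, 2.90 and 2.24 counts per count of Pecam1 in WT and 1.10, 0.454 and 1.26 in CgA-KO, with no overlap (exact permutation p = 0.1, 0.2 after adjustment over the 8 ratios).

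The central vein signals did not pass the test. Wnt2 encodes a Wnt ligand made by central vein and sinusoidal endothelium and lies on chromosome 6 from 17988940 to 18030585 with 5 exons. Wnt2 had 17, 35 and 27 counts in the WT livers and 27, 24 and 44 in the CgA-KO livers. That was 1.52, 1.49 and 1.14 CPM in WT and 1.25, 0.761 and 1.97 CPM in CgA-KO, with the CgA-KO livers on both sides of WT. The log2 fold change was -0.06 (SE 0.46, edgeR adjusted p = 0.947), and 0.21 with scaling by library size alone. Counts this low limited what could be detected.

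Rspo3 encodes an R-spondin, a secreted protein that strengthens Wnt signaling, and lies on chromosome 10 from 29452416 to 29535867 with 5 exons, of which 404 bases overlap the antisense gene Gm48159. Its level was 6.00, 7.40 and 4.11 CPM in the WT livers and 6.59, 6.34 and 7.26 CPM in the CgA-KO livers. The CgA-KO livers lay inside the WT range. The log2 fold change was 0.21 (SE 0.27, edgeR adjusted p = 0.664) and came to -0.0042 without WT replicate 3.

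**Figure D2:**
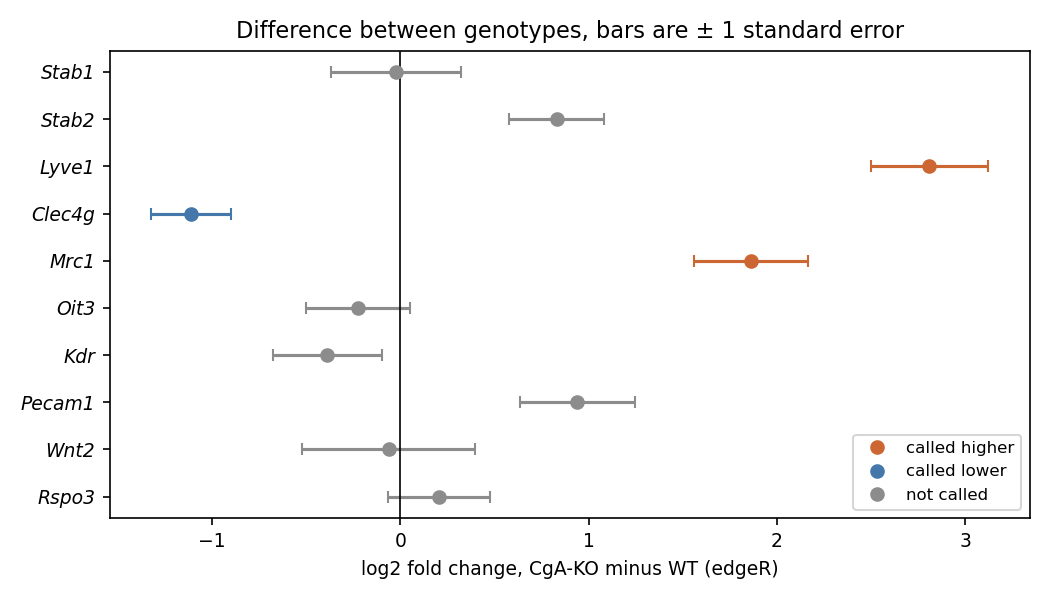
Log2 fold change of each gene, CgA-KO minus WT, from edgeR's quasi-likelihood test, with bars of 1 standard error and color by call. Lyve1 at 2.81 and Mrc1 at 1.86 are called higher, Clec4g at -1.11 is called lower, and Stab2 at 0.83 and Pecam1 at 0.94 are not called.

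Levels of different genes were compared as CPM per kilobase of the principal transcript. In WT livers Clec4g had the highest level, 20.2 CPM per kilobase on average, and its range of 16.2 to 22.3 lay above every other member. Stab1 (5.11), Mrc1 (4.75), Stab2 (3.43), Kdr (3.35), Oit3 (3.22) and Pecam1 (2.83) followed, and each overlapped its neighbour in this order. Rspo3 (1.89) lay below Pecam1 without overlap, and Wnt2 (0.614) and Lyve1 (0.490) came last and overlapped each other. In CgA-KO livers the order differed at the top, where Mrc1 averaged 17.2 with a range of 13.2 to 25.3 and Clec4g averaged 9.36 with a range of 7.68 to 10.5. Lyve1 averaged 3.39 CPM per kilobase there, sixth in the order, while Wnt2 (0.589) was last.

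Each gene was next set against the other endothelial genes of the same library, since in whole tissue fewer cells of a type and less RNA per cell cannot be told apart. The reference was the mean log2 CPM of 16 further general endothelial genes, which was 2.94, 2.97 and 2.82 in the WT livers and 2.99, 2.80 and 2.72 in the CgA-KO livers. It overlapped between the genotypes and differed by -0.07. Relative to this reference, Lyve1 was higher in CgA-KO by 2.83 on the log2 scale, Mrc1 by 1.88, Stab2 by 0.95 and Pecam1 by 0.95, and Clec4g differed by -1.03. These 5 genes did not overlap between genotypes, Pecam1 included, and each had an exact permutation p = 0.1 (0.2 after adjustment over 10 genes), so none could pass a threshold of 0.05. The other 5 overlapped, with differences of 0.01 for Stab1, -0.14 for Oit3, -0.37 for Kdr, -0.07 for Wnt2 and 0.31 for Rspo3. Over all genes tested, 33.6% did not overlap on the CPM scale, and the share on this relative scale was not computed. Without Cdh5 in the reference the difference of Wnt2 changed sign to 0.06. Leaving out 1 library moved the differences of Stab1 between -0.32 and 0.33, of Oit3 between -0.29 and 0.0046, of Kdr between -0.60 and -0.14, of Wnt2 between -0.44 and 0.24 and of Rspo3 between 0.13 and 0.47. Signs changed without WT replicate 2 (Stab1 and Oit3), CgA-KO replicate 1 (Stab1 and Wnt2), CgA-KO replicate 2 (Wnt2) and CgA-KO replicate 3 (Stab1). Stab2 was lowest, at 0.62, without WT replicate 2, and the 5 genes without overlap kept their signs.

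**Figure D3:**
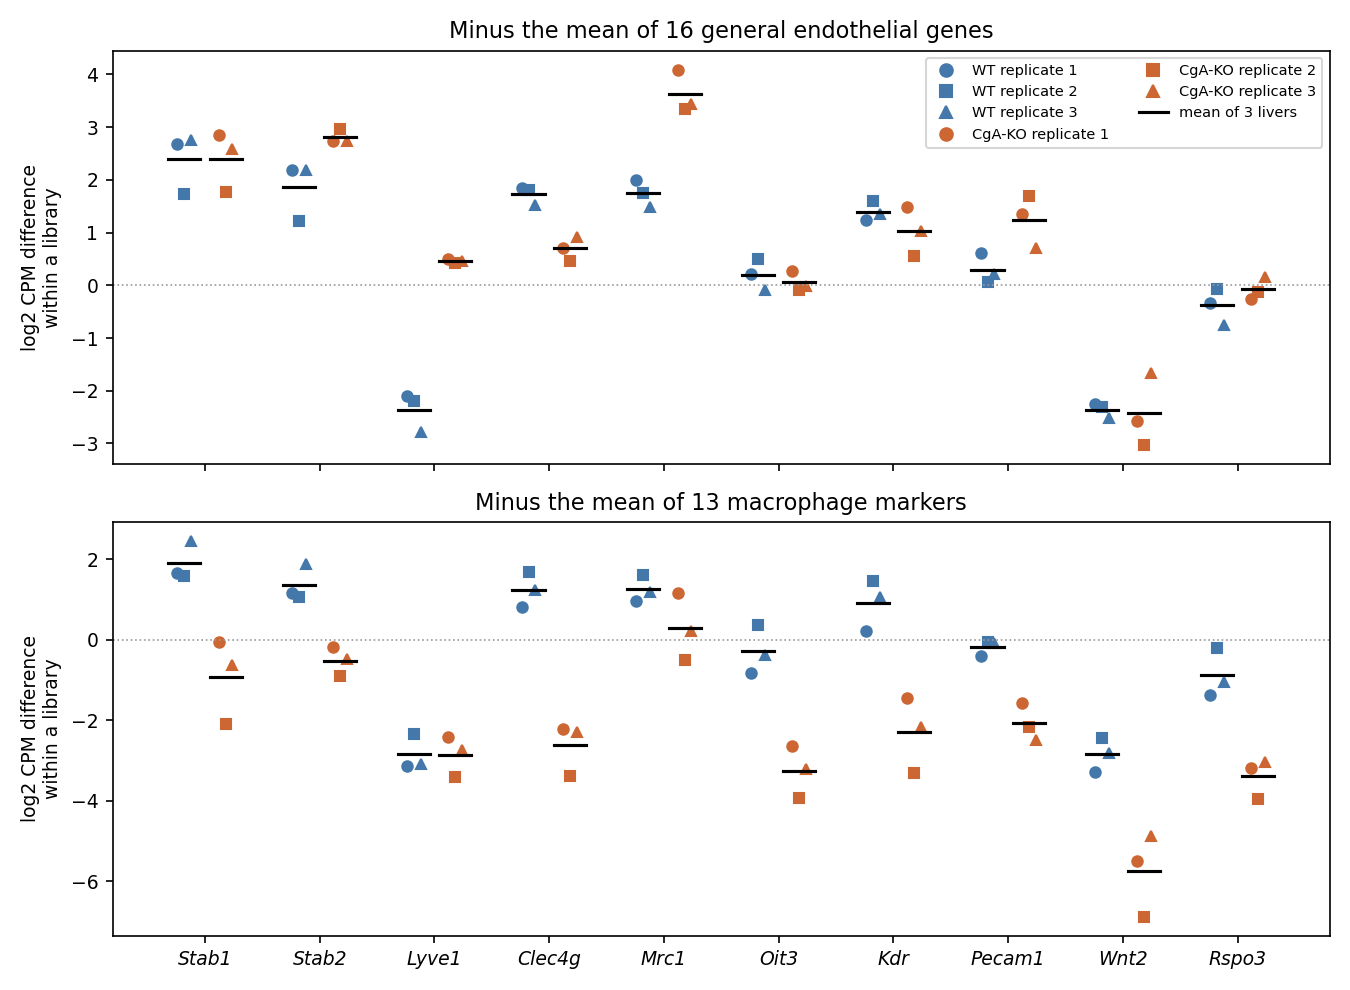
Log2 level of each gene minus a reference of the same library, for 3 WT and 3 CgA-KO livers. The reference is the mean log2 CPM of 16 other general endothelial genes (top) or of 13 macrophage markers (bottom). In the top panel Lyve1, Mrc1, Stab2 and Pecam1 lie higher in every CgA-KO liver, by 0.95 to 2.83 on average, and Clec4g lies lower in every one. The bottom reference was itself higher by 2.77 in CgA-KO, so genes that rose less lie lower there by construction.

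Companion lists placed these values among other genes of the vessel wall. Beside their counts stand the shares over all genes tested by edgeR, 8.60% called higher, 3.84% called lower and 29.1% at an unadjusted p under 0.05. Of 12 further sinusoidal endothelial genes, edgeR called 0, with 2 at an unadjusted p under 0.05, DESeq2 called 1 and limma-voom 0. Their median log2 fold change was -0.07, and their summed level was 204.1 to 262.1 CPM in WT and 203.9 to 253.7 CPM in CgA-KO. The member of this list with the smallest p was Bmp2, a ligand that sinusoidal endothelium sends to hepatocytes to control iron sensing. Bmp2 stood at 9.94, 13.1 and 9.35 CPM in WT and at 6.77, 6.02 and 6.85 CPM in CgA-KO, without overlap, with a log2 fold change of -0.72 (SE 0.22, edgeR adjusted p = 0.0667, DESeq2 -0.75 and 0.0402).

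Of 16 further general endothelial genes, 1 was called higher and 0 lower by edgeR, against 8.60% and 3.84% of all genes tested. DESeq2 called 1 higher and 1 lower, and limma-voom 1 higher and 0 lower. The median log2 fold change was -0.24. The gene called higher by edgeR was Cdh5, which encodes VE-cadherin, the adhesion protein of endothelial junctions. Cdh5 was at 11.8, 7.44 and 6.10 CPM in WT and at 36.4, 42.3 and 16.3 CPM in CgA-KO, a log2 fold change of 1.92 (SE 0.38, edgeR adjusted p = 0.0153). Its call was lost without WT replicate 2 (adjusted p = 0.0954), WT replicate 3 (0.0874), CgA-KO replicate 1 (0.0553) or CgA-KO replicate 2 (0.0544). The gene that DESeq2 called lower was Cldn5, a tight junction protein named after its values had been seen. It was at 3.40, 4.89 and 3.51 CPM in WT and at 2.09, 1.52 and 2.02 CPM in CgA-KO, without overlap (-1.08, SE 0.33, edgeR adjusted p = 0.0628, DESeq2 0.0261).

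Of the genes of continuous capillaries, large vessels and leukocyte adhesion, 10 were tested. Of these, 4 were called higher and 0 lower, against 8.60% and 3.84% of all genes tested. The list had 8 at an unadjusted p under 0.05 (29.1% of all genes tested) and a median log2 fold change of 1.12. The part of leukocytes and other cells in these levels was not tested. DESeq2 and limma-voom each called 4 higher and 1 lower. Ly6a, the Sca-1 surface protein of endothelial and progenitor cells, rose from 8.59, 3.61 and 2.37 CPM to 31.7, 82.4 and 42.7 CPM (log2 fold change 3.49, SE 0.52, edgeR adjusted p = 0.00621). Vcam1, an adhesion molecule for leukocytes, rose from 24.5, 10.8 and 7.03 CPM to 79.6, 55.0 and 88.6 CPM (2.42, SE 0.43, adjusted p = 0.0108). Icam1 and Plvap were the others called, and they and the genes that follow in this paragraph were named after their values had been seen. Icam1 (1.16, adjusted p = 0.0128) kept its call at the 0.05 threshold under all 13 alternatives. Plvap (1.19, adjusted p = 0.0390), a protein of fenestrae and caveolae diaphragms, lost its call without WT replicate 2 (0.124), WT replicate 3 (0.158), CgA-KO replicate 1 (0.0621) or CgA-KO replicate 2 (0.0735). Without WT replicate 2 the count was 1, and Ly6a (adjusted p = 0.0665) and Vcam1 (0.0848) were not called. Cav1 and Cav2, which encode caveolins, lay the other way. Cav2 was at 7.16, 5.87 and 5.76 CPM in WT and at 2.27, 1.59 and 3.99 CPM in CgA-KO, without overlap (-1.26, SE 0.37, edgeR adjusted p = 0.0557), and was the gene called lower by DESeq2 (adjusted p = 0.0146) and limma-voom (0.0347). Cav1 was also lower in every CgA-KO liver without passing the test (-1.005, adjusted p = 0.104), and Cd34, a sialomucin of capillary endothelium, overlapped (0.02, adjusted p = 0.977).

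Ligands of endothelial receptors were mixed, with 1 of 10 tested called higher and 0 lower, against 8.60% and 3.84% of all genes tested. Of the 10, 6 were at an unadjusted p under 0.05 (29.1% of all genes tested). DESeq2 called 3 higher and 1 lower, and limma-voom 2 higher and 0 lower. Angpt1, the ligand of the endothelial receptor Tie2, was called at a low level, 0.448, 0.383 and 0.254 CPM in WT and 1.95, 1.87 and 0.941 CPM in CgA-KO. Its log2 fold change was 2.16 (SE 0.50, edgeR adjusted p = 0.0264), and the call was lost without WT replicate 2 (0.0761), WT replicate 3 (0.137), CgA-KO replicate 1 (0.0964) or CgA-KO replicate 2 (0.0765). The further calls of DESeq2, named after their values had been seen, were Gdf2 and Bmp10, which encode circulating ligands of endothelial BMP receptors, and Vegfa, the ligand of Kdr. Vegfa was at 245.8, 158.9 and 339.4 CPM in WT and at 138.4, 132.2 and 120.4 CPM in CgA-KO, without overlap (-0.93, SE 0.28, edgeR adjusted p = 0.0637, DESeq2 0.00857). On the log2 scale Gdf2 differed by 0.90 (edgeR adjusted p = 0.0517, DESeq2 0.0271, limma-voom 0.0499) and Bmp10 by 0.87 (edgeR adjusted p = 0.0759, DESeq2 0.0480), both without overlap.

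The Wnt pathway beyond Wnt2 and Rspo3 was covered by 12 tested ligands, R-spondins and receptors, with a median log2 fold change of -0.34. Of these, edgeR called 1 higher and 2 lower, against 8.60% and 3.84% of all genes tested. Lrp5, a Wnt co-receptor, rose from 42.5 ± 7.4 to 83.7 ± 4.5 CPM (log2 fold change 0.98, SE 0.19, edgeR adjusted p = 0.0144, and 0.0888 without WT replicate 3). Fzd4, a Frizzled receptor of endothelium and hepatocytes, fell from 45.0 ± 14.1 to 18.6 ± 2.4 CPM (-1.27, SE 0.24, adjusted p = 0.0128, and 0.0508 without WT replicate 3 and 0.0575 with library size alone). Rnf43, a Wnt target that removes Frizzled receptors from the cell surface and that R-spondins act against, fell from 25.3 ± 0.9 to 15.1 ± 0.9 CPM (-0.74, SE 0.16, adjusted p = 0.0205). Its call was lost with library size alone (adjusted p = 0.144) and when any 1 library other than WT replicate 1 was left out (adjusted p from 0.0514 to 0.0975).

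Pericentral hepatocyte genes that respond to Wnt signals had 1 of 12 called higher and 0 lower by edgeR, against 8.60% and 3.84% of all genes tested. DESeq2 called 2 higher and 0 lower and limma-voom 1 and 0, and the median log2 fold change was 0.14. Rhbg, an ammonium transporter of pericentral hepatocytes, was called at 4.83, 2.64 and 1.35 CPM in WT and 5.24, 15.6 and 11.2 CPM in CgA-KO (1.90, SE 0.51, edgeR adjusted p = 0.0440) and kept the call in 5 of 13 alternatives. Glul, the glutamine synthetase of the same zone, had a log2 fold change of 0.24 (adjusted p = 0.666) with overlapping genotypes. Axin2, a direct target of Wnt signaling, was at 8.32, 9.27 and 9.69 CPM in WT and 11.3, 15.8 and 15.5 CPM in CgA-KO, without overlap and without passing the test (0.64, adjusted p = 0.0825). Glul, Axin2 and Tbx3 were named after their values had been seen. Of the 12 genes, 8 had a positive log2 fold change and 4 a negative one. Without overlap, 3 were higher in CgA-KO and 1 lower (19.0% and 14.6% of all genes tested). The lower one was Tbx3 (-0.28, edgeR adjusted p = 0.288).

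**Figure D4:**
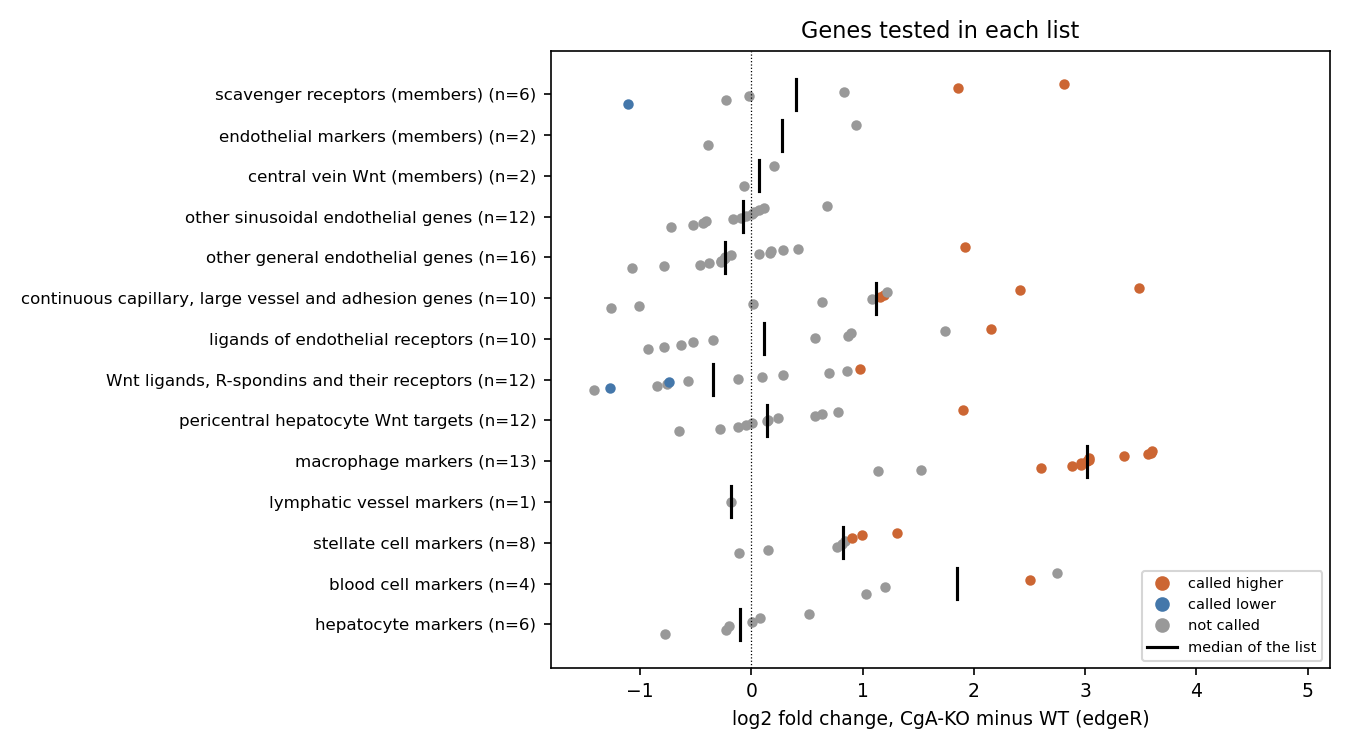
Log2 fold change, CgA-KO minus WT, of every tested gene of the members and companion lists, with a black bar at each list's median and color by edgeR call. The sinusoidal list lies around its median of -0.07, and the macrophage markers lie around 3.02.

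Markers of other liver cells were counted in the same way, against 8.60% of all genes tested called higher by edgeR and 3.84% lower. Of 13 macrophage markers, 11 were called higher and 0 lower. Their median log2 fold change was 3.02. Adgre1, which encodes the macrophage antigen F4/80, rose from 6.71, 2.59 and 3.13 CPM to 68.6, 34.6 and 43.1 CPM (3.61, SE 0.41, edgeR adjusted p = 0.00322). Vsig4, a complement receptor of Kupffer cells, rose from 24.5, 16.03 and 8.68 CPM to 138.4, 148.1 and 211.1 CPM (3.35, SE 0.38, adjusted p = 0.00322). Without WT replicate 2 the count of macrophage markers called was 7.

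Each member was also set against the macrophage markers of the same library. Relative to the mean log2 CPM of the 13 markers, Lyve1 differed between genotypes by -0.01 and Mrc1 by -0.96, both with overlap. That mean was itself 3.40 in WT and 6.16 in CgA-KO, higher by 2.77 without overlap. A gene that did not rise is lower against it by construction. Likewise, a gene that rose about as much, like Lyve1 (log2 fold change 2.81), is near 0 against it. No test of the other 8 genes against this reference is therefore given. The 13 markers include Marco, named after its values had been seen. Marco was at 1.34, 4.46 and 14.3 CPM in WT and at 0.139, 57.4 and 1.075 CPM in CgA-KO. The differences of Lyve1 and Mrc1, and their overlap, were not computed without Marco. In counts, Lyve1 had 0.0277, 0.137 and 0.0692 per count of Csf1r, the receptor for the macrophage growth factor CSF1, in WT and 0.0306, 0.0492 and 0.0787 in CgA-KO. These ranges overlapped (exact permutation p = 0.8, adjusted 0.8). Mrc1 had 0.501, 2.21 and 1.46 per count of Csf1r in WT and 0.372, 0.376 and 0.622 in CgA-KO, also with overlap (exact permutation p = 0.2, adjusted 0.267). Csf1r itself was at 61.5, 11.8 and 13.5 CPM in WT and at 365.1, 189.4 and 113.9 CPM in CgA-KO. Its call as higher was kept in 8 of 13 alternatives. No other macrophage marker was used as a denominator, so the overlap of both ratios is given for Csf1r only. Both ratios were chosen after the counts had been seen, and Csf1r itself ranged over 2.37 on the log2 scale among WT livers. The part of macrophages in the levels of Lyve1, Mrc1, Stab1 and Pecam1 was not tested.

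Lymphatic vessels also make Lyve1, but the markers listed for them could not show their part here. Of 4 markers only Prox1, which hepatocytes also express, passed the filter on low counts, and it was not called (log2 fold change -0.18, edgeR adjusted p = 0.637). Of 8 stellate cell markers, 3 were called higher and 0 lower, against 8.60% and 3.84% of all genes tested. Their summed level was 235.9 to 289.5 CPM in WT and 394.9 to 628.4 CPM in CgA-KO. Rgs5, a pericyte gene, rose from 31.3 ± 3.8 to 77.5 ± 9.0 CPM (1.31, SE 0.18, adjusted p = 0.00550), and Reln, a matrix protein of stellate cells, rose from 22.0 ± 3.1 to 41.3 ± 9.9 CPM (0.91, SE 0.22, adjusted p = 0.0294). The third was Dcn, a matrix proteoglycan named after its values had been seen (0.99, adjusted p = 0.0436), whose call was lost without WT replicate 1 (0.0657), WT replicate 3 (0.181), CgA-KO replicate 1 (0.0728) or CgA-KO replicate 2 (0.0833). DESeq2 called 3 of this list higher and limma-voom 4. Without WT replicate 3, CgA-KO replicate 1 or CgA-KO replicate 2 the stellate count was 1, and Reln was not called (adjusted p of 0.140, 0.0831 and 0.0738), nor was it without WT replicate 2 (0.0720). Of 4 blood cell markers, 1 was called higher (8.60% of all genes tested), the leukocyte antigen gene Ptprc (2.503, SE 0.52, adjusted p = 0.0179). Its call was lost when every gene with any count was tested (0.0950) and without WT replicate 2 (0.0787), WT replicate 3 (0.134), CgA-KO replicate 1 (0.0648) or CgA-KO replicate 2 (0.0616). DESeq2 and limma-voom each called 2, the other being the hemoglobin gene Hba-a1, named after its values had been seen, which was higher in every CgA-KO liver (1.20, edgeR adjusted p = 0.0573, DESeq2 0.0106, limma-voom 0.0490). Of 6 hepatocyte markers edgeR called 0, with 1 at an unadjusted p under 0.05 (29.1% of all genes tested). DESeq2 called 1 and limma-voom 0, and the smallest p was that of Ttr, the thyroid hormone carrier (-0.78, adjusted p = 0.166). The part of these cell types in the levels of the 10 genes was not tested.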

How the data were processed

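Libraries of liver RNA, 1 per mouse, came from 3 mice of each genotype. The values are the counts that the authors deposited, whole numbers on 32212 rows named by symbol, not scaled for depth. The submitters' processing notes name Salmon 1.4.0 and GRCm38, and how transcripts were summed to genes and whether strand was used are not given in the sources used here, so reads of genes with overlapping exons may have been split. Each of the 6 columns was assigned to its library by title, and 0 were left out.

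The filter filterByExpr of edgeR 4.0.16 (R 4.3.3), at a minimum count of 10, kept 13867 genes. Scaling by TMM (factors from 0.757 to 1.12), robust quasi-likelihood fits over both groups without covariates and Benjamini-Hochberg adjustment over all genes followed, and a call is an adjusted p-value under 0.05. Log2 levels used a prior count of 2. Relative levels and count ratios were compared by exact two-sided permutation tests over 3 livers against 3, which cannot give less than 0.1. Replicates of a genotype differed by more than sampling noise (chi-square over its degrees of freedom, 30.4 to 205.3).

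The members and lists were chosen with earlier results of these data known. All 10 members are named, and from each list up to 2 genes called higher and 2 called lower with the smallest p, or where none was called the 1 with the smallest p. Genes that define a cell type may stand beside a member. Alternatives were DESeq2 1.42.0, limma-voom (limma 3.58.1), library size alone, upper-quartile factors, other filters, a threshold of 0.01, a replicate block and leaving out each library. The 13 alternatives counted for single genes leave out the threshold of 0.01. For the relative levels, alternatives were added after the data were seen. They were the reference without Cdh5, library size alone, upper-quartile factors, the other filters and leaving out each library. Gene positions are those of GENCODE M21 on GRCm38 and promoters those of RefSeq on GRCm38.p6. The procedure was tested on simulated data. Python 3.11.15 with matplotlib 3.10.9 drew the figures.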

Additional observations from a re-analysis of the deposited data

How the results depend on the processing

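Depth limited Wnt2 and, in WT livers, Lyve1, at 17 to 44 and 19 to 38 counts. Of the 10 members, 2 were called higher and 1 lower. With DESeq2 4 were called higher, and fits without 1 library called 2 to 4. With library size alone, and at an adjusted p-value under 0.01, 0 were called lower. The companion lists had 23 genes called higher, 10 at the 0.01 threshold and 12 to 27 without 1 library, the lowest without WT replicate 2. They had 2 called lower, against 7 with DESeq2, 0 with library size alone, 0 at the 0.01 threshold and 0 to 3 without 1 library, the lowest without WT replicate 3. The median log2 fold change of the members moved from 0.09 to 0.36 with library size alone. That scaling gave log2 fold changes of 0.20 for Stab1, 0.0731 for Oit3, 0.21 for Wnt2 and -0.84 for Clec4g, and upper-quartile factors gave 0.0248 for Stab1. Stab2 was called with DESeq2 (0.81) and with a total of at least 1 count (0.84), and Pecam1 with DESeq2 (0.915). Without 1 library the fold changes ranged from -0.35 to 0.28 for Stab1, 0.59 to 1.03 for Stab2, 0.77 to 1.23 for Pecam1, -0.43 to 0.27 for Wnt2, -0.72 to -0.12 for Kdr, -0.41 to -0.03 for Oit3 and -0.0042 to 0.42 for Rspo3. Over all genes 1726 were called, 69.1% of them higher, against 86.6% of 1493 with library size alone and 394 to 2126 calls without 1 library, 55.8% to 80.5% of them higher. The cause was not tested.

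Same-numbered livers did not deviate together (r = 0.199, 0.0127 and -0.0659), so the numbers were taken not to pair the mice. With the replicate block 2 members were called higher, 1 lower and 1498 genes in all, and the same members were called.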
